A study of Mus musculus with 6 samples.

Results

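The 30 genes described here encode the protein-folding machinery of the endoplasmic reticulum (ER) and the sensors of the unfolded protein response. They were chosen by symbol from the 49492 rows of the count table, as ER stress sensors, chaperones, disulfide isomerases, translocon components and genes of ER-associated degradation. All 30 have a row, and all 30 passed the filter on low counts, among 15186 tested genes. RNA was sequenced from CD8 T cells of the spleen, isolated in the naive state from OT-I mice aged 6 to 8 weeks on a C57/BL6 background and then cultured for 24 hours on plate-bound anti-CD3 (1 µg/ml) with soluble anti-CD28 (1 µg/ml). OT-I is a transgenic T cell receptor that recognises an ovalbumin peptide, and every group carried it. The groups were 3 libraries from wild type OT-I mice (WT replicates 1 to 3) and 3 from NIK-CD4Cre-OT-I mice (KO replicates 4 to 6), in which a Cre under Cd4 control, active from the thymus on and so not specific to CD8 cells, targets the gene for NIK, the kinase that starts the noncanonical NF-kB pathway. The comparison asks how stimulated CD8 T cells differ when T cells lack NIK. No unstimulated cells are among these samples, so what stimulation itself did to these genes was not measured. Separate animals are not stated for the libraries, and the p-values therefore reflect library-to-library spread, which may be technical.

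Proteins that enter the ER pass through the Sec61 channel, are glycosylated, and fold with the help of BiP (Hspa5), GRP94 (Hsp90b1), calnexin, calreticulin and the disulfide isomerases. When unfolded protein accumulates, IRE1 (Ern1) splices Xbp1 mRNA into the form that encodes the active transcription factor, ATF6 is cut free of the membrane, and PERK (Eif2ak3) slows translation and favours ATF4. Chaperone genes are classical targets of ATF6 and XBP1, Dnajb9 is a classical target of XBP1, and Herpud1 is reached by several branches. Activated T cells enlarge their secretory pathway, and CD8 effector cells use the IRE1 and XBP1 branch. Counts per gene do not separate the spliced from the unspliced Xbp1 mRNA.

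Some of these genes share an element in their promoters that is named for ER stress. RefSeq promoters on GRCm38.p6, from 250 bases before to 50 after the start, matched 24 of the 30 members by symbol. Atf6, Hyou1, Manf, Derl1, Sec61a1 and Ostc had no entry. The ER stress response element (ERSE), which is CCAAT, then 9 bases of any kind, then CCACG, was searched on both strands. It stood in the promoters of 9 of the 24 members (37.5%), against 0.119% of all 32841 promoters in the table. The first share counts genes and the second counts promoters. The element is named for the response that these genes serve, so its presence in them is not independent support for the list. These 9 were Hspa5, Hsp90b1, Dnajc3, Creld2, Calr, Canx, Pdia6, Syvn1 and Derl3, and they made up 9 of the 37 genes with such a promoter. The sites are shown because the same letters recur upstream of genes with unlike products. Each is read 5′ to 3′ on the strand that carries the element, upstream of the RefSeq start, with 5 flanking bases on each side, and capitals mark the fixed letters of the element.
Hspa5 (chr2:34772020-34772048, plus strand): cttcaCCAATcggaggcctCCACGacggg
Calr (chr8:84847070-84847098, plus strand): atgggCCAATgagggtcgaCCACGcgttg
Canx (chr11:50325795-50325823, minus strand): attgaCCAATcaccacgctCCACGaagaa
Pdia6 (chr12:17266486-17266514, plus strand): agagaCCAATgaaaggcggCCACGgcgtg
Dnajc3 (chr14:118937822-118937850, plus strand): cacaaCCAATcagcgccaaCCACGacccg
Creld2 (chr15:88819515-88819543, minus strand): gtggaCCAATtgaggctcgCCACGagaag
Syvn1 (chr19:6046527-6046555, plus strand): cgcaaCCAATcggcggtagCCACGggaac
Derl3 (chr10:75893237-75893265, minus strand): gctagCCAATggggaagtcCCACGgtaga

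Hsp90b1 was the member with 2 such elements, 1 on each strand. The 185 bases upstream of its annotated starts (chr10:86705510-86705694, minus strand) are shown whole, with the fixed letters of both elements in capitals. The second element appears here as its reverse complement.
Hsp90b1: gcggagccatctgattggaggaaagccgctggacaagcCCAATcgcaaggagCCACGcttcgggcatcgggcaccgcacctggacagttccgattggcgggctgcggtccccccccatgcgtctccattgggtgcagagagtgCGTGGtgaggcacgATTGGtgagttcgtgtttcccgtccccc
A related element, ERSE-II (ATTGG, 1 base of any kind, then CCACG), was found in 0.0365% of all promoters and in 2 members, Herpud1 and Dnajb11. In Herpud1 it lay 52 to 42 bases upstream of the start, and in Dnajb11 after the start.
Herpud1 (chr8:94386372-94386392, plus strand): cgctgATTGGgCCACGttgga
The letters TGACGTGG, 1 form of an XBP1 element, were in 0 of the 24 member promoters and in 0.676% of all promoters. The parts of the ERSE are common by themselves: CCACG was in 32.8% and CCAAT in 37.4% of all promoters, and each in 20 of the 24 members. A match describes letters in this window and says nothing of which factor was bound.

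The libraries held 41311346 to 47851445 counts, and the 30 members took 0.5745% to 0.619% of them. At this depth 3 counts are 0.0627 to 0.0722 CPM (counts scaled to the library total with TMM factors), for counting error only. Map3k14, which encodes NIK, had 2406 to 3025 counts in the WT libraries and 2271 to 2837 in the KO libraries. Its log2 fold was -0.12 (SE 0.11, edgeR adjusted p = 0.81), so this whole-gene count did not set the genotypes apart, and directions here are between libraries as labelled. The summed CD8 T cell markers ranged from 1959 to 2051 CPM in WT and from 1995 to 2100 CPM in KO. The 2 CD4 T cell markers went opposite ways, with Cd4 at 0.367 to 0.744 CPM in WT and 0.722 to 0.92 CPM in KO. Foxp3, the factor of regulatory T cells, was at 4.7, 3.44 and 11.5 CPM in WT replicates 1, 2 and 3 and at 1.9, 3.05 and 4.81 CPM in KO replicates 4, 5 and 6 (log2 fold -1.01, edgeR adjusted p = 0.7). Their sum reached 11.9 CPM in WT replicate 3. Of 12 B and plasma cell markers, Tnfrsf17 had 0 counts in every library, and Ighm alone gave 291 to 327 CPM. The other 11 together gave 38.4, 117 and 76.4 CPM in WT replicates 1, 2 and 3, and 48.1, 49.8 and 62.8 CPM in KO replicates 4, 5 and 6. The 11 myeloid and dendritic markers summed to 8.87 to 12.4 CPM in WT and 8.36 to 18.3 CPM in KO. The 4 NK markers summed to at most 0.259 CPM and the 7 erythroid and platelet markers to at most 4.21 CPM in any library. In such bulk RNA, fewer cells of a type and less RNA per cell cannot be told apart.

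Stimulated CD8 T cells of both genotypes carried high levels of ER chaperone mRNA. Per kilobase of exon (CPM/kb, the scale used wherever genes are compared), 16 of the 30 members stood above the 90th percentile of 14739 tested genes with a known length, and 2 stood below the median. Calreticulin (Calr), a calcium-binding lectin chaperone, led at 239.6 CPM/kb in WT and 246 in KO. BiP (Hspa5), the Hsp70 of the ER lumen, followed at 175 and 164. Next came P4hb, the protein disulfide isomerase PDI (159 and 151 CPM/kb), Pdia3, the isomerase ERp57 that works with the lectin chaperones (138 and 142), Canx, calnexin (123 and 123), and Hsp90b1 (103 and 104). The sensors were far less abundant, at 8.15 CPM/kb for Atf6, 4.58 for Eif2ak3 and 2.11 for Ern1 in WT. Xbp1 mRNA, at 45.7 CPM/kb in WT, was above every sensor. The lowest member was Derl3, a derlin of degradation known from secretory cells, at 0.909 CPM/kb in WT and 1.09 in KO. Its relatives Derl1 (36.1 CPM/kb in WT) and Derl2 (6.71) stood above it, and the span from Calr to Derl3 in WT was 264-fold. The length counts every annotated exon, used in these cells or not, so the order depends on the annotation. Before division by length, Derl1 and Derl2 were at 120.2 and 54 CPM in WT. Of the 29 neighbouring pairs in this order, 14 had ranges over the 6 libraries that did not meet, such as Calr and Hspa5. Pdia3 met both of its neighbours, P4hb and Canx, which did not meet each other. Each gene from Pdia4 down to Dnajb11 met the next in the order, a run that includes Xbp1, Sec61b, Sdf2l1, Pdia6, Sec61a1, Hyou1 and Derl1.

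**Figure D1:**
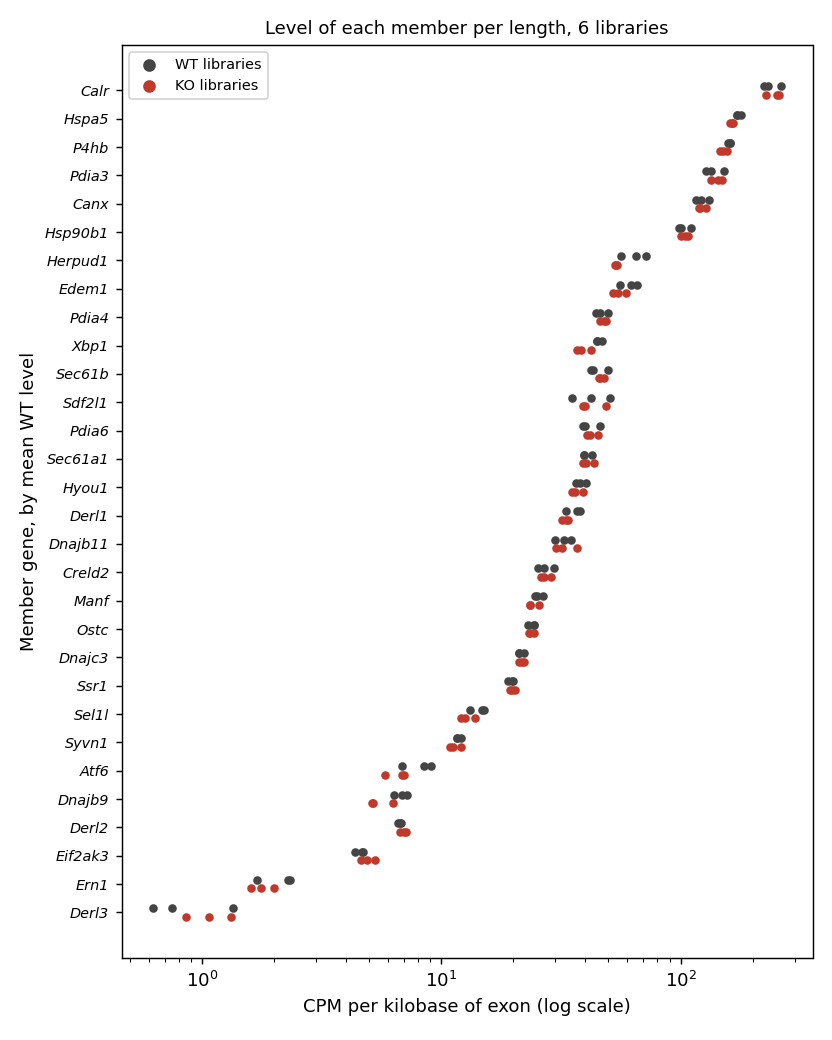
Level of each member in CPM per kilobase of exon (log axis) in the 3 WT libraries (grey points) and the 3 KO libraries (red points), ordered by the WT mean. Calr at the top and Derl3 at the bottom are 264-fold apart in WT, and within each gene the WT and KO points lie close together compared with the distance between genes.

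Against this spread between genes, the genotype differences were small, and none of the 30 members passed the test. EdgeR's quasi-likelihood test called 0 members at an adjusted p under 0.05, where the background was 0.00659% of tested genes (1 of 15186), and the smallest adjusted p of a member was 0.6, for Xbp1. DESeq2 and limma-voom also called 0 members, and over all tested genes they called 89 and 1. At an unadjusted p under 0.05 there were 4 members (7.26% of all tested genes passed in either direction), with 4 lower in KO (13.3%; 3.44% of all tested genes) and 0 higher (3.82%). Those 4 were Xbp1, Atf6, Dnajb9 and Herpud1. Every KO library lay under every WT library for 5 members (16.7%; 6.07% of all tested genes), namely Xbp1, Hspa5, Dnajb9, P4hb and Herpud1, and the reverse held for 0 (6.68%; 12.8% of all tested genes did not overlap in either direction). Estimates were negative for 16 members (53.3%; 47.6% of all tested genes) and positive for 14, with a median log2 fold of -0.0042, beside a median of 0.01 over all tested genes. The 95% interval of the fold lay within 1.5-fold in either direction for 29 of the 30 members (64.4% of all tested genes), the exception being Derl3. It lay within 1.2-fold for 19 members (36.2% of all tested genes).

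**Figure D2:**
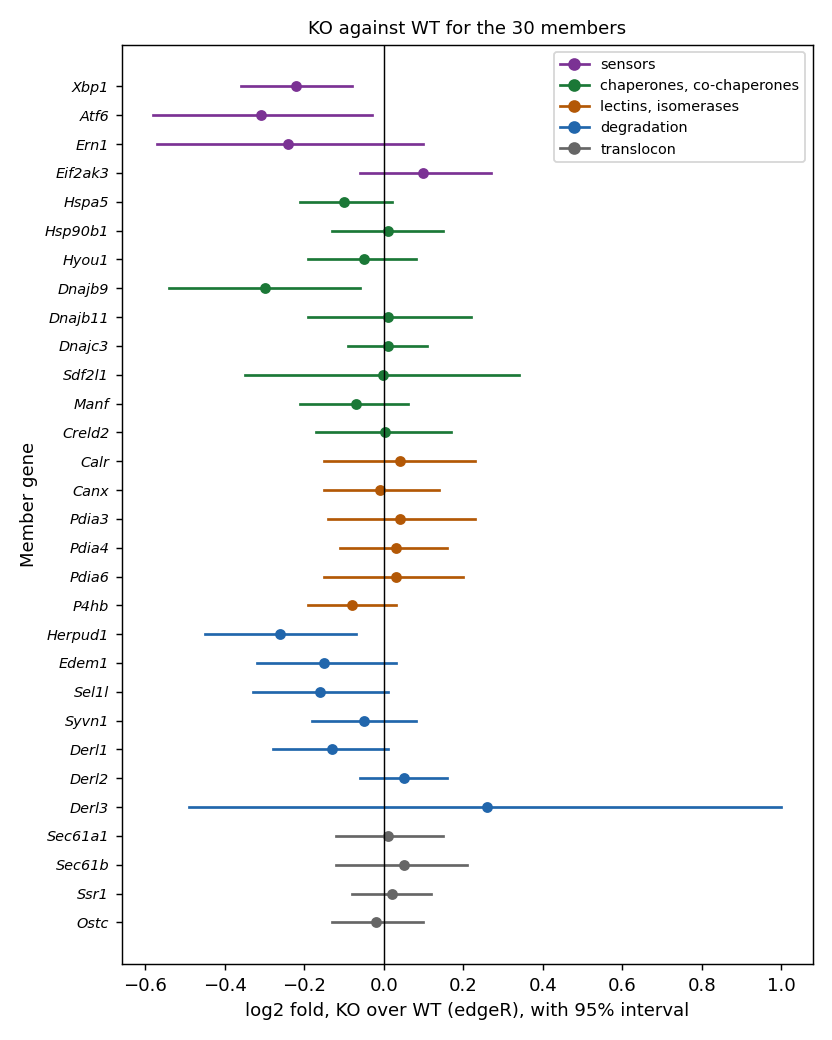
Log2 fold of KO over WT from edgeR for each member (points) with its 95% interval (lines), coloured by role. The intervals of Xbp1, Atf6, Dnajb9 and Herpud1 lie below 0, those of the lectin chaperones, isomerases and translocon genes straddle 0, and Derl3 has the widest.

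The sensors and their transcription factors gave the lowest median of any role, a log2 fold of -0.23 over 4 genes. Xbp1 (chromosome 11, 5520659 to 5525893, plus strand, GRCm38) encodes the transcription factor of the IRE1 branch. Its level was 146, 146 and 153 CPM in WT replicates 1, 2 and 3, and at 125, 120.1 and 137 CPM in KO replicates 4, 5 and 6. The groups did not overlap, with KO replicate 6 the nearest to the WT libraries. The log2 fold was -0.22 (SE 0.06), a fold of 0.858 with a 95% interval from 0.779 to 0.944 (edgeR adjusted p = 0.6).

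Atf6 (chromosome 1, 170704674 to 170867771, minus strand), the membrane-bound factor released by proteolysis, was at 63.6, 83.9 and 78.1 CPM in WT replicates 1, 2 and 3 and at 63.6, 64.8 and 54 CPM in KO replicates 4, 5 and 6. WT replicate 1 lay with the KO libraries. The log2 fold was -0.31 (SE 0.12; edgeR adjusted p = 0.67). Ern1, the kinase and RNase IRE1, showed the same arrangement, at 13.9, 18.8 and 19.1 CPM in WT and 13.1, 16.4 and 14.5 CPM in KO. Its log2 fold was -0.24 (SE 0.14; edgeR adjusted p = 0.72). Eif2ak3, the kinase PERK, was at 26.3, 28.4 and 28.1 CPM in WT and 27.8, 31.8 and 29.4 CPM in KO, with a log2 fold of 0.10 (SE 0.07; edgeR adjusted p = 0.75). It was the single sensor with a positive estimate, and its groups overlapped. For Eif2ak3, 8.05% of the exon bases are shared with a transcript annotated on the opposite strand, and no source used here gives the strand setting of the counting.

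WT replicate 2 had the highest Atf6 value, WT replicate 1 the lowest Atf6, Ern1 and Herpud1 values of the WT libraries, and the same 2 libraries held the highest and the lowest sums of B cell markers without Ighm (117 and 38.4 CPM). In KO replicate 6 that sum was higher than in WT replicate 1, at 62.8 CPM. Its Atf6 (54 against 63.6 CPM) and Herpud1 (124 against 132 CPM) were lower, and its Ern1 (14.5 against 13.9 CPM) was higher. The highest Ern1 value was in WT replicate 3. The part of B cells in these values was not tested.

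**Figure D3:**
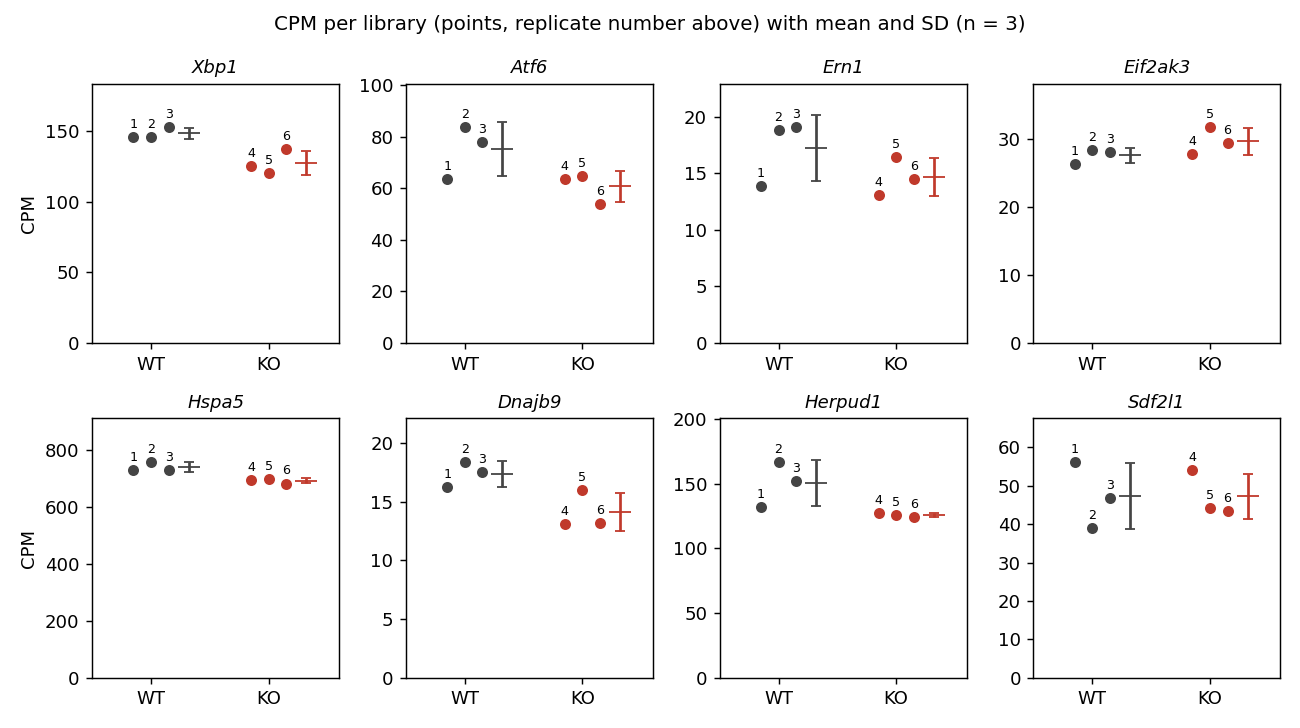
CPM of 8 members in each library, as points numbered by replicate (grey WT, red KO), with the mean and SD of 3 libraries beside them and each vertical axis starting at 0. KO points lie under all WT points for Xbp1, Hspa5, Dnajb9 and Herpud1, WT replicate 1 lies among the KO points for Atf6 and Ern1, and the groups overlap for Eif2ak3 and Sdf2l1.

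Of the 9 chaperones and co-factors in the lumen, 7 overlapped between the genotypes. Hspa5 and Dnajb9 did not (22.2%, against 12.8% of all tested genes), and both were lower in KO (6.07% of all tested genes). Hspa5 (chromosome 2, 34771970 to 34777547, plus strand) was at 729, 759 and 729.8 CPM in WT replicates 1, 2 and 3 and at 695, 698 and 682 CPM in KO replicates 4, 5 and 6. All KO libraries were lower, with a fold of 0.936 and an interval from 0.866 to 1.01 (edgeR adjusted p = 0.7). Dnajb9 (chromosome 12, 44205559 to 44210326, minus strand), the co-chaperone ERdj4 that hands BiP its clients and restrains IRE1, was at 16.2, 18.4 and 17.5 CPM in WT and 13.1, 16 and 13.2 CPM in KO. The groups did not overlap, with KO replicate 5 just under WT replicate 1. Its log2 fold was -0.30 (SE 0.10), a fold of 0.812 with an interval from 0.688 to 0.959 (edgeR adjusted p = 0.63).

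Hsp90b1, the Hsp90 of the ER that folds Toll-like receptors and integrins, was at 447, 399 and 404 CPM in WT and 435, 419.7 and 406 CPM in KO. Its groups overlapped and its fold of 1.01 had an interval from 0.914 to 1.11. It shares 10.3% of its exon bases with a pseudogene on the opposite strand. On its own strand it shares 2.08% with a processed transcript and 3.3% with a microRNA gene. Sdf2l1, a BiP partner and a sensitive reporter of the response, varied most among the chaperones, at 56.3, 39 and 46.7 CPM in WT and 54.1, 44.2 and 43.4 CPM in KO. Within WT its coefficient of variation was 18.4%, and its fold of 0.998 had an interval from 0.787 to 1.27. The other members with this role were Hyou1, the large Hsp70 relative that exchanges BiP's nucleotide (fold 0.963), the BiP co-chaperones Dnajb11 (1.01) and Dnajc3 (1.01), the lumenal trophic factor Manf (0.95) and the isomerase-like Creld2 (1). Each of these 5 had overlapping groups, and their edgeR adjusted p ran from 0.77 to 0.99.

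The lectin chaperones and disulfide isomerases lay close together in the genotypes. Calr was at 758, 645 and 667 CPM in WT replicates 1, 2 and 3 and at 726, 745 and 656 CPM in KO replicates 4, 5 and 6, with the groups interleaved. Its log2 fold was 0.04 (SE 0.08; edgeR adjusted p = 0.92). Canx had a fold of 0.996, Pdia3 of 1.03, and the multidomain isomerases Pdia4 and Pdia6 each of 1.02. P4hb was at 450.3, 459 and 459.7 CPM in WT and 448, 420.2 and 429 CPM in KO. Its groups did not overlap, but WT replicate 1 and KO replicate 4 were close together, and its fold of 0.948 had an interval from 0.878 to 1.02 (edgeR adjusted p = 0.72). All 6 intervals in this group lay within 1.2-fold.

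Genes of ER-associated degradation draw misfolded proteins back to the cytosol for the proteasome. Their estimates were negative for 5 of 7 members (71.4%, against 47.6% of all tested genes), with a median log2 fold of -0.13. Herpud1 (chromosome 8, 94386438 to 94395377, plus strand), a scaffold of the ubiquitin ligase complex at the ER membrane, was at 132, 167 and 152 CPM in WT and at 127, 126 and 124 CPM in KO. The KO libraries were nearly equal, and WT replicate 1 was much closer to them than WT replicates 2 and 3 were. Its log2 fold was -0.26 (SE 0.08), a fold of 0.836 with an interval from 0.732 to 0.955 (edgeR adjusted p = 0.61). With WT replicate 1 left out, Herpud1 was the member that edgeR called lower (log2 fold -0.34, adjusted p = 0.046), in a fit that called 119 of all tested genes. Over the other alternatives its adjusted p ran from 0.26 (DESeq2) to 0.99 and its log2 fold stayed between -0.27 and -0.18.

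Sel1l, the adaptor of the HRD1 ligase, was at 113, 129.7 and 127 CPM in WT and 108, 119 and 104 CPM in KO (log2 fold -0.16, edgeR adjusted p = 0.7). Derl1, a channel component, was at 111, 127 and 123 CPM in WT and 113, 111 and 106 CPM in KO (log2 fold -0.13, edgeR adjusted p = 0.7). In both, WT replicates 2 and 3 were the highest libraries and WT replicate 1 lay within the KO range. Edem1, the lectin that picks out glycoproteins for degradation, had a log2 fold of -0.15 (SE 0.07; edgeR adjusted p = 0.7). Syvn1, the ligase HRD1 itself, had one of -0.05 (SE 0.05; edgeR adjusted p = 0.84) and Derl2 one of 0.05 (SE 0.05; edgeR adjusted p = 0.8). Derl3 had only 57 to 121 counts per library, and its fold of 1.19 had an interval from 0.714 to 2.

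The translocon and oligosaccharyltransferase genes overlapped between the genotypes, where 12.8% of all tested genes did not overlap in either direction. Sec61a1, the channel subunit, was at 287, 266 and 266 CPM in WT and 292, 271 and 263 CPM in KO. Its fold of 1.01 had an interval from 0.918 to 1.11, and 8.16% of its exon bases are shared with an antisense transcript. Sec61b, its small partner, had a fold of 1.03, Ssr1, a subunit of the translocon-associated complex, one of 1.01, and Ostc, a subunit of the glycosylating enzyme, one of 0.989. All 4 had overlapping groups, and their edgeR adjusted p ran from 0.88 to 0.97.

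The libraries followed 2 arrangements, the first seen in both genotypes and the second within WT. Among the 15 chaperones, lectins and isomerases, 10 had their highest WT value in replicate 1 and their highest KO value in replicate 4. Of all tested genes, 22.2% did. The translocon and oligosaccharyltransferase members Sec61a1, Sec61b, Ssr1 and Ostc did so too, making 14 of all 30 members. Sdf2l1 showed this arrangement most. Its log2 deviations from its mean were 0.26 in WT replicate 1, 0.21 in KO replicate 4 and -0.27 in WT replicate 2. Among the 11 sensor and degradation genes the order within WT was turned over: 8 were lowest of the WT libraries in replicate 1, as were 40% of all tested genes. Herpud1, for example, deviated by -0.06 in WT replicate 1 and by 0.28 and 0.15 in WT replicates 2 and 3. These counts describe patterns seen in the data and carry no test.

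**Figure D4:**
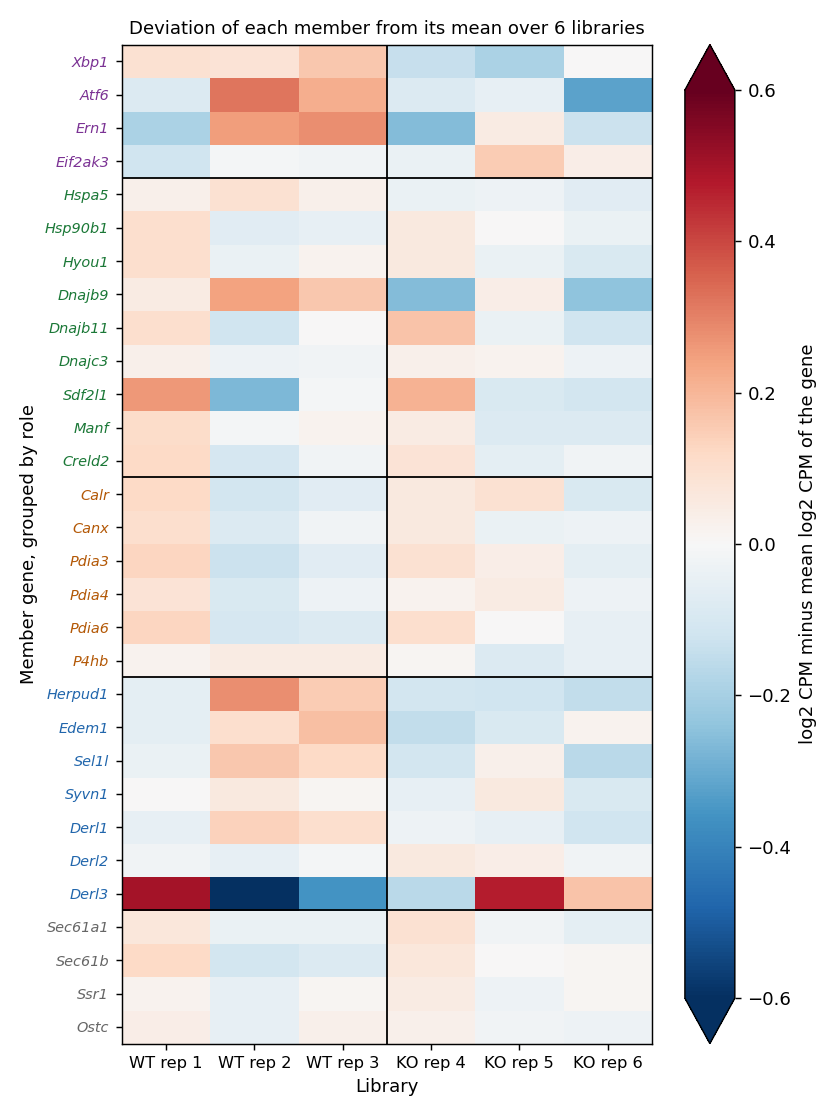
Deviation of each member's log2 CPM from its mean over the 6 libraries (colour, red above and blue below the mean, saturating at 0.6), with genes in rows by role and libraries in columns. Chaperone, lectin, isomerase and translocon rows are mostly red in WT replicate 1 and KO replicate 4. Atf6, Ern1, Herpud1, Sel1l and Derl1 are red in WT replicates 2 and 3 and blue in WT replicate 1. Derl3 has the strongest colours.

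Several differences depended on WT replicate 1. Without it, 8 members were lower in KO at an unadjusted p under 0.05 and 1 was higher, against 4 and 0 with all libraries, while the share of all tested genes also rose, to 7.33% lower and 7.58% higher. The 8 were Xbp1, Atf6, Ern1, Dnajb9, Herpud1, Edem1, Sel1l and Derl1, and the higher gene was Derl3. The log2 fold of Atf6 was then -0.41 and that of Ern1 -0.37. The count lower in KO was 2 when WT replicate 2, WT replicate 3 or KO replicate 6 was left out, those 2 being Xbp1 and Herpud1 each time. The share of all tested genes lower in KO at that p was then smaller too, at 1.6%, 1.58% and 2.48% in that order. Xbp1 and Herpud1 were the members with an unadjusted p under 0.05 in all 6 fits that left out a library. The edgeR p ran from 0.002 to 0.03 for Xbp1 and from 0.00031 to 0.048 for Herpud1. These 2 members also had the smallest p with all libraries, and the 6 fits share most of their libraries. The share of all tested genes that passed in every fit was not taken, so this count has no background. The log2 fold of Xbp1 ran from -0.28 to -0.18 over these fits.

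**Figure D5:**
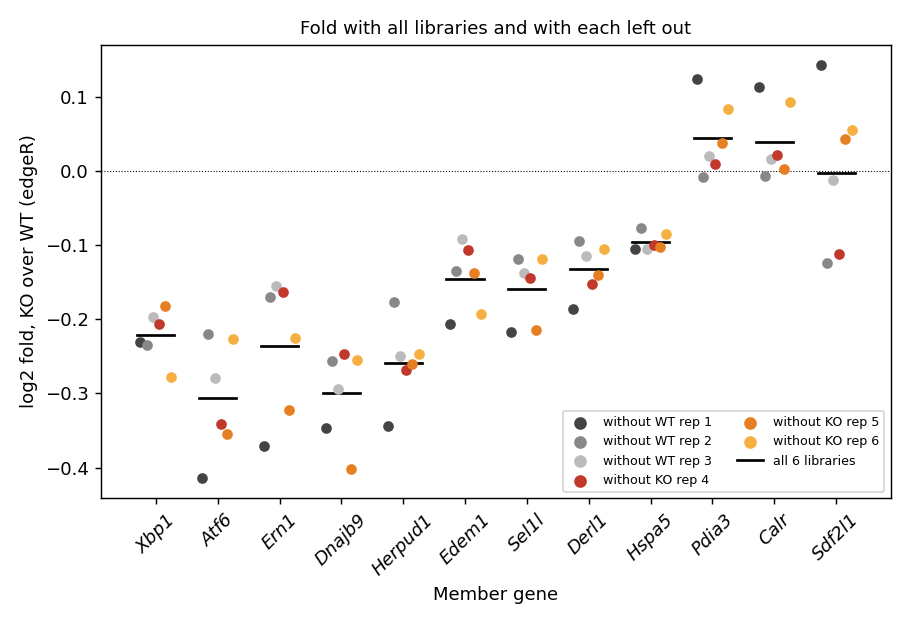
Log2 fold of KO over WT from edgeR for 12 members with all 6 libraries (black bars) and with each library left out in turn (coloured points). Xbp1, Atf6, Ern1, Dnajb9, Herpud1, Edem1, Sel1l, Derl1 and Hspa5 stay below 0 in every fit. Atf6, Ern1 and Herpud1 are among those most negative without WT replicate 1, and Pdia3, Calr and Sdf2l1 lie on both sides of 0.

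Members with and without the ERSE were compared only by their values. The 9 members with an ERSE had a median log2 fold of 0.01, and 0 had an unadjusted p under 0.05 (7.26% of all tested genes). In 8 of them (88.9%), all but Derl3, the interval lay within 1.2-fold, as it did for 36.2% of all tested genes. The 15 members whose promoter held none had a median of -0.0025, with 3 lower in KO at an unadjusted p under 0.05 (20%; 3.44% of all tested genes), which were Xbp1, Dnajb9 and Herpud1. Of these 15 members, 7 (46.7%) had an interval within 1.2-fold. Over all genes with an ERSE in the promoter, 16 were tested, including the 9 members, with a median log2 fold of 0.01 and 0 at an unadjusted p under 0.05. Of the 2 members with ERSE-II, Herpud1 had a fold of 0.836 and Dnajb11 one of 1.01. The difference between genes with and without the element was not tested.

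Of 96 further genes of the ER machinery and its stress response, 95 were tested, and edgeR called 0, with 6 lower (6.32%; 3.44% of all tested genes) and 0 higher (3.82% of all tested genes) at an unadjusted p under 0.05. DESeq2 called 1 lower, Chac1, among its 89 calls over all tested genes (64 higher and 25 lower), and limma-voom called 0. Of these 6, 5 belonged to the 8 genes listed here as the PERK branch, whose median log2 fold was -0.36. Counts of mRNA do not show whether PERK acted on these genes. Chac1, a glutathione-degrading enzyme induced through ATF4, was at 40.7, 54.6 and 50 CPM in WT and 35.8, 34.3 and 31.9 CPM in KO (log2 fold -0.51, SE 0.11; edgeR adjusted p = 0.53; DESeq2 adjusted p = 0.0092). Its groups did not overlap. Trib3, a pseudokinase gene, averaged 111 ± 33 CPM in WT and 69.8 ± 4.26 in KO (SD, n = 3 each, log2 fold -0.68, edgeR adjusted p = 0.61). Its libraries were at 73.4, 129 and 132 CPM in WT and 65.6, 74.1 and 69.6 CPM in KO. The Trib3 groups overlapped, with WT replicate 1 within the KO range. Atf4, the transcription factor of the branch, averaged 582 ± 49 CPM in WT and 494 ± 30.8 CPM in KO (SD, n = 3 each, log2 fold -0.24, edgeR adjusted p = 0.63). The Atf4 groups did not overlap, but WT replicate 1 (527 CPM) and KO replicate 4 (522 CPM) were close together. Without WT replicate 1 edgeR called Chac1 and Trib3 lower (adjusted p of 0.031 and 0.0052), in a fit with 119 calls over all tested genes (52 higher and 67 lower) against 1 with all libraries. Eif2ak3 itself, at the head of this branch, had a positive estimate.

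The remaining gene of the 6 was Krtcap2, a small subunit of the oligosaccharyltransferase, at 51.1, 58.8 and 60.5 CPM in WT and 50.6, 46.8 and 47.9 CPM in KO (log2 fold -0.23, edgeR adjusted p = 0.62). The other 2 subunits with the smallest p, Tmem258 and Magt1, each had a log2 fold of -0.04. Among 16 oxidoreductases and prolyl isomerases, 0 passed an unadjusted p under 0.05. Those with the smallest p were Fkbp11 (log2 fold -0.84, at only 0.484 CPM in WT), the reductase Dnajc10 (0.09, every KO library above every WT library) and the PDI oxidase Ero1l (-0.59). Ero1l was at 145, 305 and 293 CPM in WT and 136, 152 and 204 CPM in KO, so WT replicate 1 again lay with the KO libraries.

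Among 20 further degradation genes, 0 passed an unadjusted p under 0.05. Of them 15 were estimated lower in KO (75%, against 47.6% of all tested genes), with a median log2 fold of -0.02. Ube2g2 (-0.12), Aup1 (-0.07) and Ubxn4 (-0.13) had the smallest p. Of 14 tested translocon, signal peptidase and signal recognition genes, 0 passed, led by Ssr4 (-0.11), Sec11a (-0.09) and Spcs2 (-0.05). In these 3 every KO library was under every WT library (21.4% of the 14, against 6.07% of all tested genes). Over the 95 further genes tested, this held for 12 (12.6%) and the reverse for 3, where 6.68% of all tested genes showed the reverse. The 8 calnexin cycle genes (Mcfd2 at -0.11, Uggt1 at 0.03 and Prkcsh at -0.04), the 8 Hsp70 co-factors (Dnajc1 at -0.08, Dnajb12 and Sdf2 at -0.05 each) and the 11 partners of ATF6 and IRE1 (Yy1 at 0.05, Creb3 at -0.07 and Creb3l2 at -0.12) also had 0 genes at that p.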

How the data were processed

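Bulk RNA-seq of 3 WT and 3 KO libraries was deposited as 1 table of raw counts per gene. Per the submitters' processing notes, mm10, HTSeq 0.9.1 and DESeq2 were used. No source used here names the aligner, the annotation or whether counting used strand. Every pair of libraries differed beyond sampling noise (chi-square per gene 21.2 to 58), and each was treated as 1 sample. Separate preparations from the same animal can also differ so, and these values cannot show that the libraries came from separate animals.

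Genes were filtered with filterByExpr, scaled by TMM and tested with edgeR 4.0.16 in R 4.3.3 (robust quasi-likelihood, KO against WT). P-values were Benjamini-Hochberg adjusted over 15186 genes, and an adjusted p under 0.05 was a call. Alternatives used other scalings and filters, DESeq2 1.42.0, limma 3.58.1 and each library left out. Levels per kilobase used union exon lengths of GENCODE M21 (GRCm38), and promoters came from the RefSeq table. The members, gene lists and tests were chosen with earlier results of these data known. All 30 members were named. Values in every library were given for the 4 sensors, Hspa5, Hsp90b1, Calr, Sec61a1, the 6 members with the smallest p and those whose groups did not overlap. Sdf2l1, Chac1, Trib3, Krtcap2 and Ero1l were given so after their values were seen. Of each further list, up to 3 genes with the smallest p were named. A planned comparison of protein C-termini was not used here.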

Additional observations from a re-analysis of the deposited data

How the results depend on the processing

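Scaling by RLE or upper-quartile factors, a stricter filter, limma-voom and no robust estimation left the counts of members called (0) and of members at an unadjusted p under 0.05 (4) as they were. The number of all tested genes called was 1 in the report, 10 without a low-count filter and 89 with DESeq2. Members at an unadjusted p under 0.05 were then 6 and 5, all lower in KO. Of all tested genes, 2.59% without the filter and 3.6% with DESeq2 were lower in KO at that p. The shares higher in KO were 2.82% and 3.39%. Counts of groups that do not overlap have no value under DESeq2 or limma-voom.

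With each library left out in turn, members called ranged from 0 to 1 and members at an unadjusted p under 0.05 from 2 to 9. Those lower in KO ranged from 2 to 8 and those higher from 0 to 1. The share of all tested genes lower in KO at that p ranged from 1.58% to 7.33%, and the share higher from 2.05% to 7.58%. Members with KO below WT in every library ranged from 5 to 10, and with KO above WT from 0 to 5. Groups of fewer libraries separate more easily. The share of all tested genes that did not overlap was not taken in these fits, so these counts have no background. The median log2 fold over members ranged from -0.04 to 0.03, and all genes called from 1 to 119. The highest of each of these counts came without WT replicate 1, and the cause was not tested. Without KO replicate 4, 8 members had KO below WT in every library.

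Of 390 alternative values of the members' log2 folds, 29 in 11 genes changed sign. Sdf2l1 was at 0.01 with limma-voom, and Creld2 at -0.0011 with RLE factors, -0.0035 with upper-quartile factors and -0.0009 with DESeq2. With a library left out, the log2 fold ranged from -0.02 to 0.07 for Hsp90b1, -0.07 to 0.07 for Dnajb11, -0.12 to 0.14 for Sdf2l1, -0.05 to 0.07 for Creld2, -0.01 to 0.11 for Calr and -0.04 to 0.05 for Canx. It ranged from -0.01 to 0.12 for Pdia3, -0.01 to 0.08 for Pdia4, -0.02 to 0.11 for Pdia6, -0.03 to 0.05 for Sec61a1, -0.0018 to 0.04 for Ssr1 and -0.09 to 0.03 for Prkcsh, which is no member. No paired analysis was possible because the WT libraries are numbered 1 to 3 and the KO libraries 4 to 6, so no number is shared. Low counts limit the precision of Derl3 and Fkbp11.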
